A study of Callithrix jacchus with 3 samples.

Results

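The genes described here act in the synthesis, uptake and oxidation of cholesterol and fatty acids. They were chosen by name, from 44 listed symbols, and not by a cut on their values, though earlier results of these data were known. A symbol counted as a member where the name table paired it with an Ensembl marmoset gene ID of the count files, which held for 35 of the 44, out of 30811 genes in each file. The 9 symbols without a paired ID were SREBF2, PMVK, LSS, DHCR7, SCD, ELOVL1, ELOVL6, FADS1 and APOE, and they are not analysed here. All 35 members had counts in all 3 libraries, so none was lost to a filter.

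RNA was sequenced in 3 libraries of cells of the common marmoset (Callithrix jacchus), a small New World monkey. The cells are labelled as the extended pluripotent stem cell type, and the series calls them EPSC-like because they came from attempts to derive such cells from marmoset embryonic stem cells. The 3 libraries form 1 group, named replicates 1, 2 and 3 after their titles, with no parental or control cells. Culture medium, passage and treatment are not given in the labels used here, nor whether each library had a culture of its own. The p-values of levels therefore describe the spread of these 3 libraries alone, and that spread may be technical. The p-values of pairs of libraries rest on counting error and hold no spread between libraries. The titles differ only in the replicate number, so all 3 libraries may come from 1 line.

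Cells build cholesterol from acetyl-CoA through mevalonate and squalene, and build fatty acids from the same acetyl-CoA through malonyl-CoA. The SREBP transcription factors switch on both routes, along with lipoprotein uptake, when membranes of the endoplasmic reticulum are low in sterol. SCAP carries the SREBP precursors to the Golgi for cleavage, and INSIG proteins hold SCAP back when sterol is ample. Oxidation runs the other way: carnitine palmitoyltransferases bring activated fatty acids into mitochondria, where they are shortened to acetyl-CoA. Pluripotent stem cells are known to divide fast and to need new membrane lipid.

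Total counts were 52327369, 55224475 and 40593244 in replicates 1, 2 and 3. Values are given as CPM, counts per 1000000 counts after TMM scaling, a correction of library size for differences in composition. A count of 0, taken as up to 3 counts, allows up to 0.0736 CPM in the shallowest library. This limit, and the intervals and p-values of pairs of libraries below, cover counting error only. Replicate 3 stood apart from replicates 1 and 2 over the whole transcriptome. Over the 13719 genes whose mean reached 1 CPM, called expressed genes below, log2 ratios had an SD of 0.16 for replicate 2 over replicate 1, and of 0.55 and 0.56 for replicate 3 over replicates 1 and 2. Members were therefore described in each library, and the 3 pairs of libraries were compared gene by gene. Such a comparison tests libraries and not conditions, and both pairs with replicate 3 share that library. All 8 matched pluripotency markers were called above 1 CPM, beside 78.3% of genes with a symbol and a count. DNMT3B, a de novo DNA methyltransferase gene, stood at 2628, 2703 and 2734 CPM, whereas LIN28A stood at 674, 725 and 350 CPM.

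Of the 35 members, 34 were called above 1 CPM and 1, CPT1A, below it (quasi-likelihood test of edgeR, adjusted by Benjamini-Hochberg over the 23432 genes with a count). In the same fit, 56.0% of all genes tested and 78.3% of those with a symbol were above the level, and 37.8% of all genes tested were below it. The members' means ran from 0.461 CPM for CPT1A to 1249 CPM for HMGCS1. CPM does not correct for gene length, and no transcript lengths for the annotation counted were at hand, so levels of different genes are not ranked here.

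**Figure D1:**
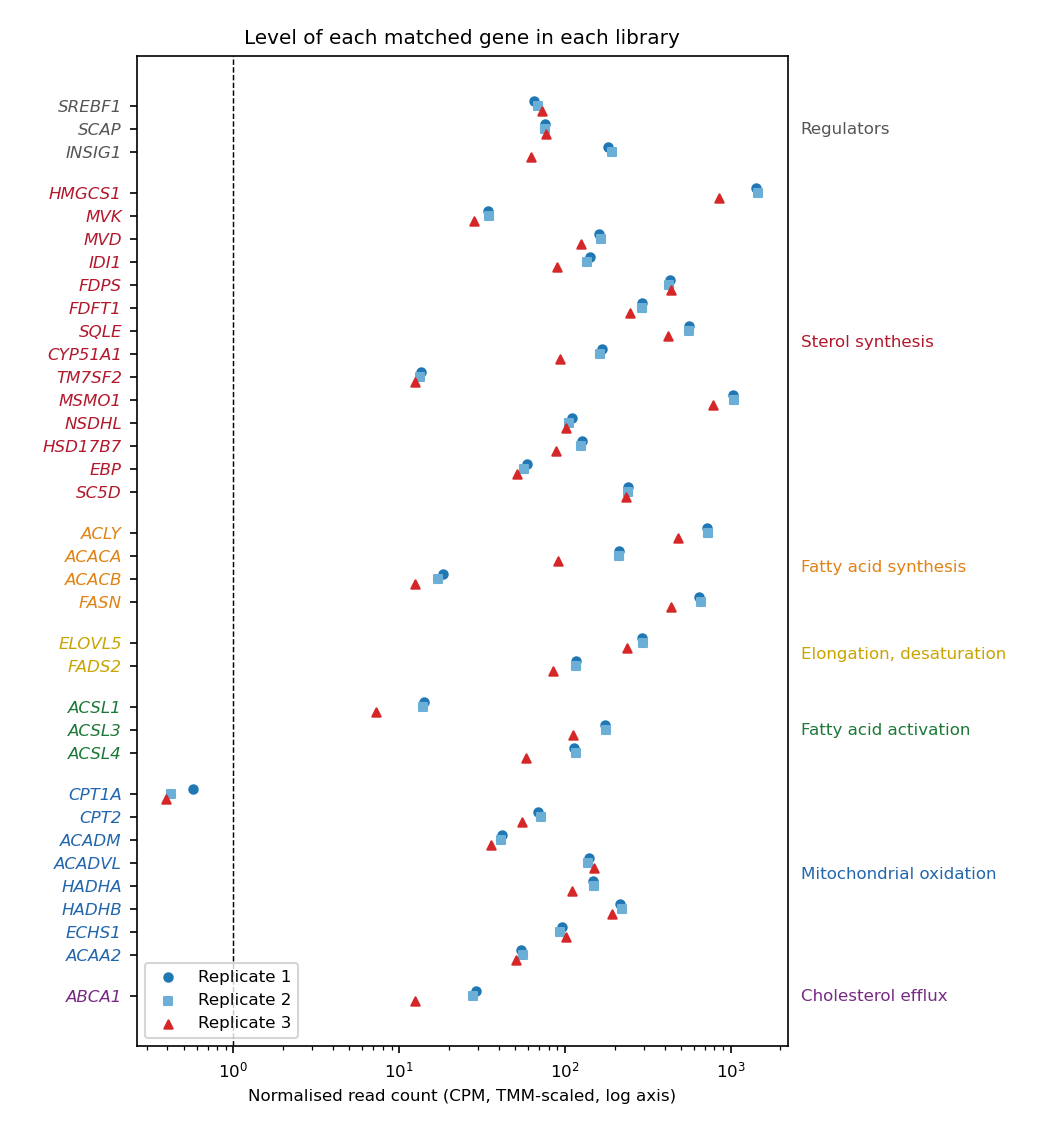
Each row is 1 of the 35 matched genes, grouped by role, and each symbol is 1 library (circle, square and triangle for replicates 1, 2 and 3). The horizontal log axis gives the normalised read count in CPM, and the dashed line marks 1 CPM; CPT1A alone lies to its left, and the triangle lies to the left of the other symbols for 30 of 35 genes.

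Some members were called lower in replicate 3, and none was called higher in it. A pair of libraries was called different for a gene at an adjusted p under 0.05 (exact conditional binomial test, two-sided, Benjamini-Hochberg adjusted over all genes tested) together with a difference of at least 1.5-fold. By this rule replicate 3 was the lower library for 9 of 35 members when set against replicate 1, and for 11 of 35 against replicate 2. Of all expressed genes, 14.3% passed as lower over replicate 1 and 14.6% over replicate 2, while 5.49% and 5.89% passed as higher. The member median of the log2 ratio was −0.40 against both libraries, beside −0.05 over the expressed genes. Between replicates 1 and 2, no member was called in either direction, and 0.437% and 0.277% of expressed genes were lower and higher in replicate 2.

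Of the 3 matched regulators, 1 was called between libraries. SREBF1, which encodes an SREBP that favours fatty acid genes, stood at 64.8, 68.7 and 73.1 CPM in replicates 1, 2 and 3. SCAP, the escort of the SREBPs, stood at 76.3, 76.3 and 76.5 CPM, with a coefficient of variation of 0.155% over the 3 libraries. Neither differed by 1.5-fold in any pair. INSIG1 (ENSCJAG00000018517), the anchor that retains SCAP and itself a known SREBP target, stood at 183, 192 and 62.5 CPM. It was thus high in replicates 1 and 2 and low in replicate 3. Its log2 ratio of replicate 3 over replicate 1 was −1.55 (95% counting interval −1.62 to −1.49), a 2.93-fold lower level. Against replicate 2 the log2 ratio was −1.62 (−1.68 to −1.56). Among expressed genes, INSIG1 lay at percentile 1.45 of the first ratio and had the lowest ratio of the 35 members in both pairs.

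The 14 matched genes of cholesterol synthesis were all above 1 CPM, and 3 of them, HMGCS1, IDI1 and CYP51A1, were called lower in replicate 3 against both other libraries. The other genes of the group were not called. The log2 ratio of replicate 3 over replicate 1 was below 0 for 13 of 14, with a median of −0.32 and a range from −0.85 to 0.01. The summed level of the 14 genes was 4800 CPM in replicate 1, 4828 CPM in replicate 2 and 3558 CPM in replicate 3.

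Along the early mevalonate steps, HMGCS1 (ENSCJAG00000001303), the HMG-CoA synthase gene at the entry of the route, stood at 1430, 1463 and 853 CPM. It was 1.68-fold lower in replicate 3 than in replicate 1 (log2 ratio −0.75, interval −0.76 to −0.73). MVK, the mevalonate kinase gene, stood at 34.6, 34.6 and 28.3 CPM, and MVD, the gene of the decarboxylase that yields isopentenyl diphosphate, at 160, 165 and 126 CPM. Both had their lowest value in replicate 3, at log2 ratios of −0.29 and −0.35 over replicate 1, short of 1.5-fold. IDI1, which encodes the isomerase of isopentenyl diphosphate, stood at 142, 137 and 89.6 CPM (log2 ratios −0.66 and −0.61 over replicates 1 and 2). FDPS, the farnesyl diphosphate synthase gene, stood at 431, 428 and 435 CPM, so its 3 libraries lay within a coefficient of variation of 0.856%. FDPS has processed pseudogenes in primates and its level is uncertain where reads are shared with them.

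At the squalene steps neither matched gene was called. FDFT1, which encodes squalene synthase, stood at 291, 292 and 247 CPM, and SQLE, which encodes squalene epoxidase, at 559, 560 and 417 CPM. The log2 ratios of replicate 3 over replicate 1 were −0.24 and −0.42, short of 1.5-fold. In both genes replicates 1 and 2 were nearly equal and replicate 3 was the lowest.

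Among the genes that turn lanosterol into cholesterol, CYP51A1, the lanosterol demethylase gene, stood at 168, 163 and 93.6 CPM. Its log2 ratio over replicate 1 was −0.85 (interval −0.90 to −0.79), the lowest of the sterol synthesis genes. MSMO1, a methylsterol oxidase gene, stood at 1034, 1044 and 782 CPM. HSD17B7, whose product reduces a keto sterol in the same demethylation, stood at 126, 125 and 88.7 CPM, and is a gene with a pseudogene copy in human. Log2 ratios over replicate 1 of −0.40 for MSMO1 and −0.51 for HSD17B7 fell short of 1.5-fold. NSDHL, the sterol dehydrogenase gene between them, stood at 110, 106 and 102 CPM, and SC5D, a sterol desaturase gene, at 242, 241 and 232 CPM. EBP, the sterol isomerase gene, stood at 59.1, 56.5 and 51.3 CPM and TM7SF2, a sterol reductase gene, at 13.5, 13.4 and 12.4 CPM. The 4 genes NSDHL, SC5D, EBP and TM7SF2 had log2 ratios between −0.20 and −0.06 over replicate 1, so successive enzymes of the same route were not shifted by a common factor.

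Of the 4 genes of fatty acid synthesis, 1 was called lower over replicate 1 and 3 over replicate 2. ACACA (ENSCJAG00000015336), which encodes the cytosolic acetyl-CoA carboxylase that makes malonyl-CoA, stood at 211, 212 and 90.8 CPM. Replicate 3 was 2.33-fold lower than replicate 1 (log2 ratio −1.22, interval −1.27 to −1.17) and 2.34-fold lower than replicate 2. Its paralogue ACACB, whose product sits at mitochondria and restrains fatty acid entry, stood at 18.3, 17.1 and 12.5 CPM and was called in neither pair (log2 ratios −0.55 and −0.46). ACLY, which encodes the enzyme that makes cytosolic acetyl-CoA from citrate, stood at 717, 728 and 482 CPM. FASN, the fatty acid synthase gene, stood at 643, 668 and 439 CPM. ACLY and FASN lay at the edge of the rule, at log2 ratios of −0.57 and −0.55 over replicate 1, where they were not called, and −0.60 and −0.61 over replicate 2, where they were. With DESeq2 size factors in place of TMM, ACLY was not called over replicate 2 either (log2 ratio −0.58).

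Of the elongation and desaturation genes only ELOVL5 and FADS2 were matched, and neither reached 1.5-fold. ELOVL5, an elongase of polyunsaturated fatty acids, stood at 293, 297 and 238 CPM. FADS2, the desaturase that starts their synthesis, stood at 117, 117 and 85.2 CPM. In each, replicate 3 was the lowest library, at log2 ratios over replicate 1 of −0.30 and −0.46.

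Acyl-CoA synthetases trap incoming fatty acids as CoA esters, and all 3 matched members were called lower in replicate 3 against both libraries. ACSL1 stood at 14.2, 14.0 and 7.21 CPM, a 1.97-fold lower level in replicate 3 than in replicate 1. ACSL3, whose product works at lipid droplets, stood at 174, 177 and 112 CPM, and ACSL4, whose product prefers arachidonate, at 114, 117 and 58.3 CPM. The log2 ratios over replicate 1 were −0.98, −0.64 and −0.96 for ACSL1, ACSL3 and ACSL4, with a median of −0.96. Replicates 1 and 2 differed by at most 0.04 on the log2 scale in each of these 3 genes. ACSL5 and ACSL6, of the same family but placed in the wider fatty acid synthesis list, were not called in any pair. ACSL5 stood at 1.07, 0.837 and 1.10 CPM and ACSL6 at 5.91, 5.56 and 5.42 CPM. Their log2 ratios over replicate 1 were 0.05 and −0.12, so not every matched gene of this family was lower in replicate 3.

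**Figure D2:**
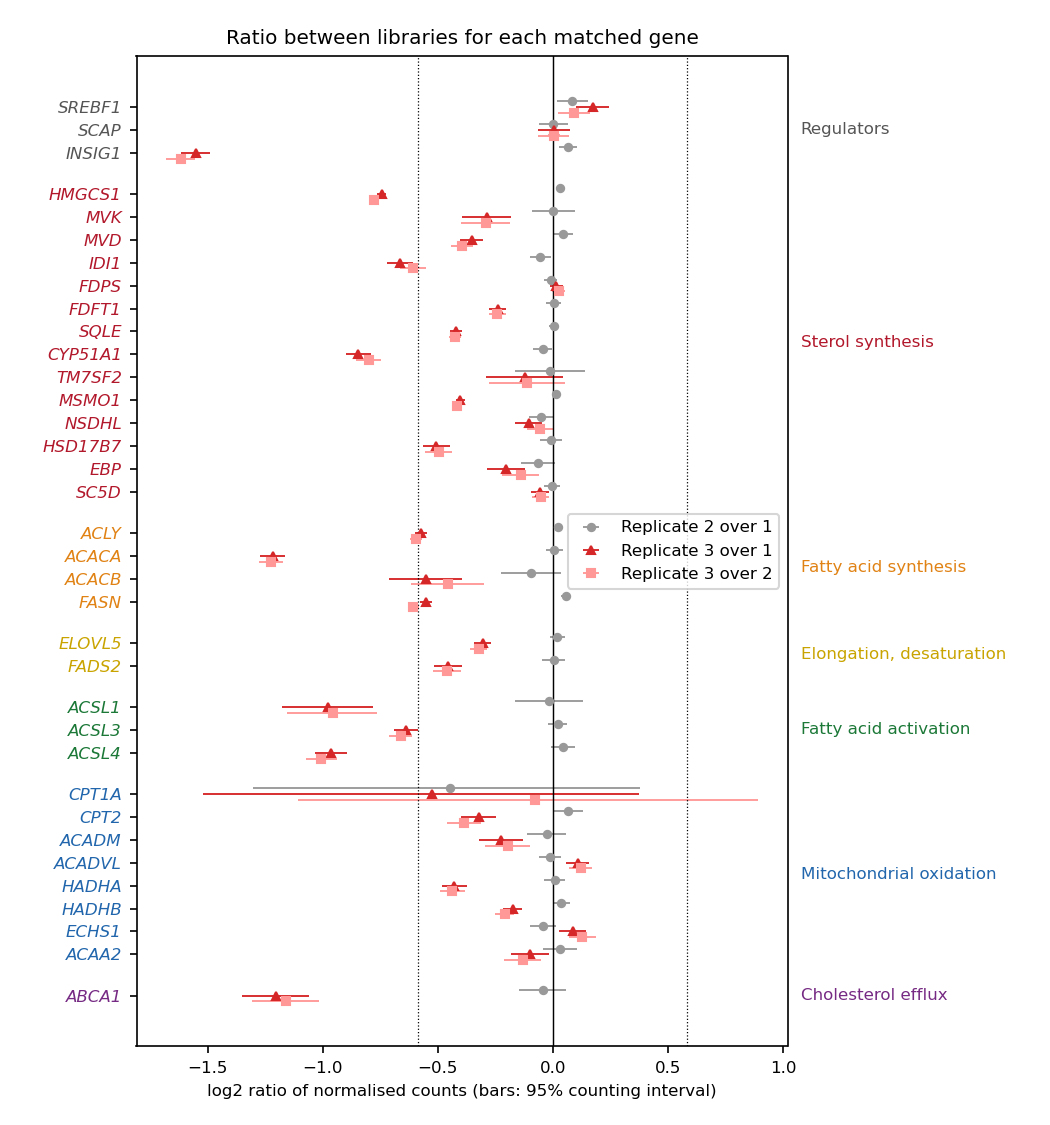
The horizontal axis gives the log2 ratio of normalised counts between 2 libraries for each of the 35 matched genes (grey circle for replicate 2 over 1, red triangle for 3 over 1, pink square for 3 over 2), with bars for the 95% counting interval. Dotted lines mark 1.5-fold; INSIG1, ACACA and ABCA1 lie farthest to the left, and SCAP and FDPS lie close to 0 in all 3 pairs.

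None of the 8 mitochondrial oxidation members was called in any pair of libraries, beside 14.3% and 14.6% of expressed genes called lower in replicate 3, and 1 of the 8, CPT1A, had few counts. CPT1A (ENSCJAG00000015871), the carnitine palmitoyltransferase form typical of liver, had 30, 23 and 16 counts, or 0.573, 0.418 and 0.392 CPM. It was called below 1 CPM (log2 level −1.10, adjusted p = 0.00829, edgeR quasi-likelihood), and lay below 1 CPM in 3 of 3 libraries. The call was lost with the DESeq2 Wald test (adjusted p = 0.574). The other forms of the enzyme, from the wider oxidation list, were above the level, CPT1B at 10.9, 11.2 and 14.2 CPM and CPT1C at 14.8, 14.6 and 11.1 CPM. CPT2, the inner-membrane partner, stood at 68.6, 71.7 and 54.8 CPM.

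The enzymes of the oxidation spiral itself differed by less than 1.5-fold in each pair. ACADVL and ACADM, the acyl-CoA dehydrogenase genes for very long and medium chains, stood at 139, 138 and 150 CPM and at 41.7, 41.0 and 35.7 CPM. HADHA and HADHB, the subunits of the trifunctional protein, stood at 149, 150 and 110 CPM and at 216, 221 and 192 CPM. ECHS1, the short-chain enoyl-CoA hydratase gene, stood at 96.4, 93.6 and 102 CPM, and ACAA2, a thiolase gene, at 54.5, 55.7 and 50.9 CPM. ACADVL and ECHS1 had their highest value in replicate 3, unlike the other members of this group. Log2 ratios of the 8 genes over replicate 1 ran from −0.53, for the sparsely counted CPT1A, to 0.11 for ACADVL. The HADHA ratio of −0.43 had a narrow counting interval (−0.48 to −0.38), whereas that of CPT1A (−1.52 to 0.37) was too wide to show a 1.5-fold difference.

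ABCA1, the exporter of cholesterol to apolipoproteins and a known target of the sterol-sensing LXR receptors, was the only matched efflux member. It stood at 28.9, 28.0 and 12.5 CPM, and was 2.30-fold lower in replicate 3 than in replicate 1 (log2 ratio −1.20, interval −1.35 to −1.06). ABCA1, which removes cholesterol, and INSIG1 and HMGCS1, which belong to its synthesis and control, all had their low value in replicate 3. They were among the 30 of 35 members lowest in that library, and a link between them was not tested.

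Set side by side, synthesis, activation and oxidation differed in how far replicate 3 lay below the others. The median log2 ratio over replicate 1 was −0.32 for sterol synthesis, −0.56 for fatty acid synthesis, −0.96 for activation and −0.20 for oxidation. Over replicate 2 the medians were −0.34, −0.60, −0.96 and −0.16 in the same order. Calls of lower level over replicate 1 numbered 3 of 14, 1 of 4, 3 of 3 and 0 of 8, beside the 14.3% of all expressed genes. For the 20 synthesis genes together, the median ratio was lower than that of oxidation by 0.21 on the log2 scale over replicate 1 and by 0.26 over replicate 2. For lipid uptake, a wider list described below, the medians were −0.29 and −0.30 over replicates 1 and 2. The median of −0.29 is the ratio of CD36, a gene of few counts, and is uncertain. Of the 15 uptake genes, 5 were called lower in each pair. The other wider lists had medians over replicate 1 of −0.38 for sterol genes, 0.08 for fatty acid synthesis and −0.10 for oxidation. There, fatty acid synthesis lay above oxidation, unlike among the members, but that list was made up otherwise than the member group. It took in THRSP, with 1, 2 and 2 counts, and the acyl-CoA synthetase genes ACSL5 and ACSL6. Neither ACSL5 nor ACSL6 was called, and neither is in the activation count of 3 of 3. These differences between groups of genes were not tested.

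In levels, the median of the 20 synthesis genes minus that of the 8 oxidation genes was 1.21, 1.19 and 0.60 on the log2 CPM scale in replicates 1, 2 and 3. The difference was thus alike in replicates 1 and 2 and smaller in replicate 3. Its mean was 1.002 ± 0.349 (SD, n = 3), and 1.82 with means of the genes in place of medians. The mean over the 8 oxidation genes takes in CPT1A, at 0.461 CPM, while the other 7 were called above 1 CPM. CPM is not corrected for gene length, so the size of this difference does not give the number of transcripts.

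**Figure D3:**
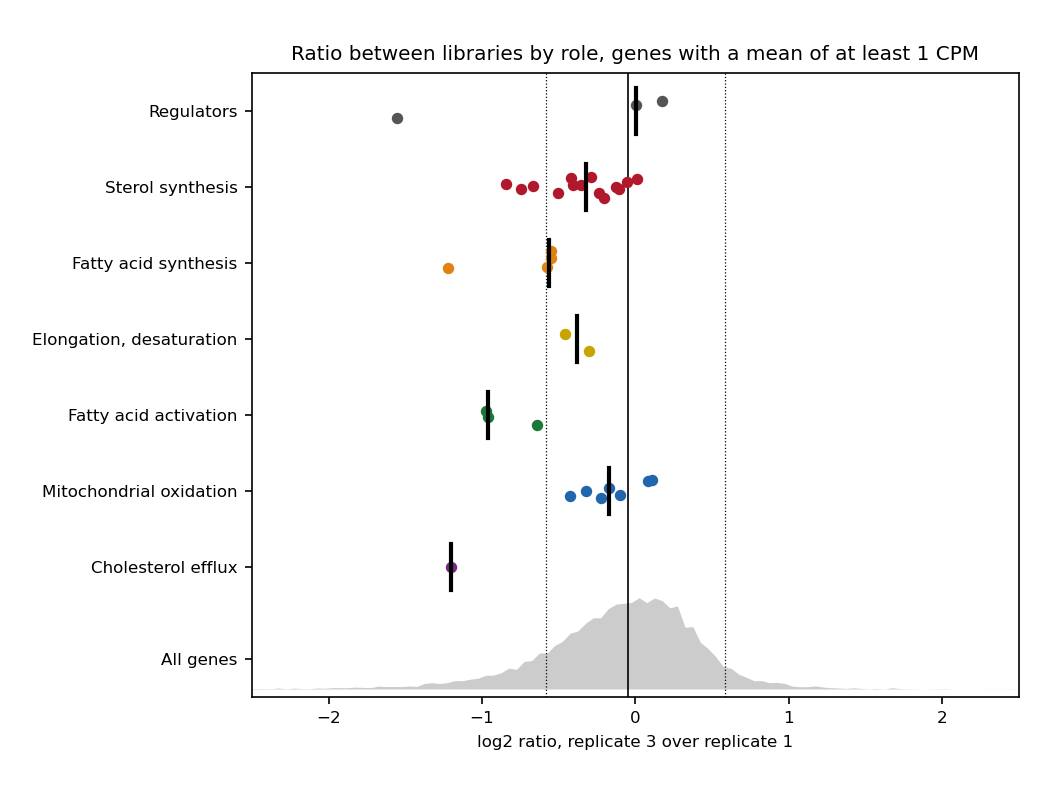
Points give the log2 ratio of replicate 3 over replicate 1 (horizontal axis) for the 34 members that are expressed genes, so without CPT1A, by role, with a thick bar at each median. The grey shape is the distribution over all 13719 expressed genes (mean of 1 CPM or more), its median is the vertical line, and dotted lines mark 1.5-fold; all 3 activation genes and no oxidation gene lie beyond the left dotted line.

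Other genes of the pathways came from 5 lists with 81 entries, of which 64 were matched, and 59 of the 64 were above 1 CPM. Of the 64, 12 were called lower in replicate 3 than in replicate 1 and 13 lower than in replicate 2, and none was called higher. Between replicates 1 and 2 none was called. The lists are made of genes with the same or related roles as the members, so they give no independent view of them. Their shares of 18.8% and 20.3% stand beside 14.3% and 14.6% of expressed genes.

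Of the further sterol genes, 4 were matched, all 4 were above 1 CPM, and none was called in either pair with replicate 3. ACAT2, which encodes the cytosolic thiolase that joins acetyl-CoA units ahead of HMGCS1, stood at 295, 286 and 228 CPM, a log2 ratio of −0.37 over replicate 1 and −0.33 over replicate 2. INSIG2, the other INSIG gene, stood at 16.5, 16.3 and 12.6 CPM, with log2 ratios of −0.39 and −0.37. Both genes were lowest in replicate 3 and stayed short of 1.5-fold, where INSIG1 was far beyond it.

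Of the 15 matched lipid uptake genes, 5 were called lower over replicate 1 and 5 over replicate 2. SLC27A6, a fatty acid transport gene, stood at 8.37, 8.11 and 3.70 CPM, the lowest log2 ratio of the list (−1.17 over replicate 1 and −1.13 over replicate 2). SLC27A4, of the same family, stood at 5.77, 5.22 and 3.14 CPM. Among the lipoprotein receptor genes, LRP1 stood at 241, 235 and 130 CPM and VLDLR at 14.8, 16.7 and 9.0 CPM. LPL, the lipoprotein lipase gene, stood at 22.7, 19.0 and 11.6 CPM. In all 5 of these genes replicate 3 was the lowest library. SLC27A2, with 4, 2 and 4 counts, and CD36, with 5, 7 and 3 counts, were below 1 CPM. The median log2 ratio over the 15 genes was −0.29 over replicate 1, and most of the list differed far less than SLC27A6. This median is the ratio of CD36 itself, so it rests on a gene of few counts.

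For storage and efflux, 2 of 11 matched genes were called lower against each library, GPAM, which starts glycerolipid synthesis, at 21.8, 21.1 and 12.5 CPM and SOAT1, which esterifies cholesterol, at 70.9, 75.8 and 45.8 CPM. PLIN2, the lipid droplet coat gene, stood at 175, 170 and 141 CPM, short of 1.5-fold, and DGAT2, a triglyceride synthesis gene, had 104, 90 and 61 counts. Of the 14 matched further fatty acid synthesis genes, 2 were called, namely ACSS2, which makes acetyl-CoA from acetate, at 37.8, 37.0 and 18.8 CPM and the elongase gene ELOVL7 at 4.53, 5.13 and 2.31 CPM. The count of 2 of 14 is a share of 14.3% in each pair, near that of all expressed genes. The list's median log2 ratio over replicate 1 was 0.08, with members on both sides of 0. HACD3, a dehydratase gene of elongation, stood at 374, 372 and 363 CPM, and THRSP, with 1, 2 and 2 counts, was below 1 CPM.

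Among 20 matched further oxidation genes, 3 were called lower in replicate 3 than in replicate 1, namely ACADSB, PPARGC1A and PPARG. These and PPARA, a regulator gene, made up the 4 called lower than in replicate 2. These shares of 15% and 20% stand beside 14.3% and 14.6% of expressed genes. ACADSB, a mitochondrial acyl-CoA dehydrogenase of branched short chains, stood at 65.5, 66.6 and 39.2 CPM. The regulator genes PPARGC1A and PPARG were low throughout, at 1.95, 1.98 and 0.858 CPM and at 1.57, 1.20 and 0.687 CPM. PPARG was not distinguished from 1 CPM (adjusted p = 0.442, edgeR quasi-likelihood), and its call over replicate 2 was lost when counts were halved (adjusted p = 0.224, exact conditional binomial test). HSD17B4, a peroxisomal oxidation gene, stood at 182, 180 and 152 CPM and was not called. The median log2 ratio of the list was −0.10 over replicate 1, beside −0.20 for the oxidation members.

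**Figure D4:**
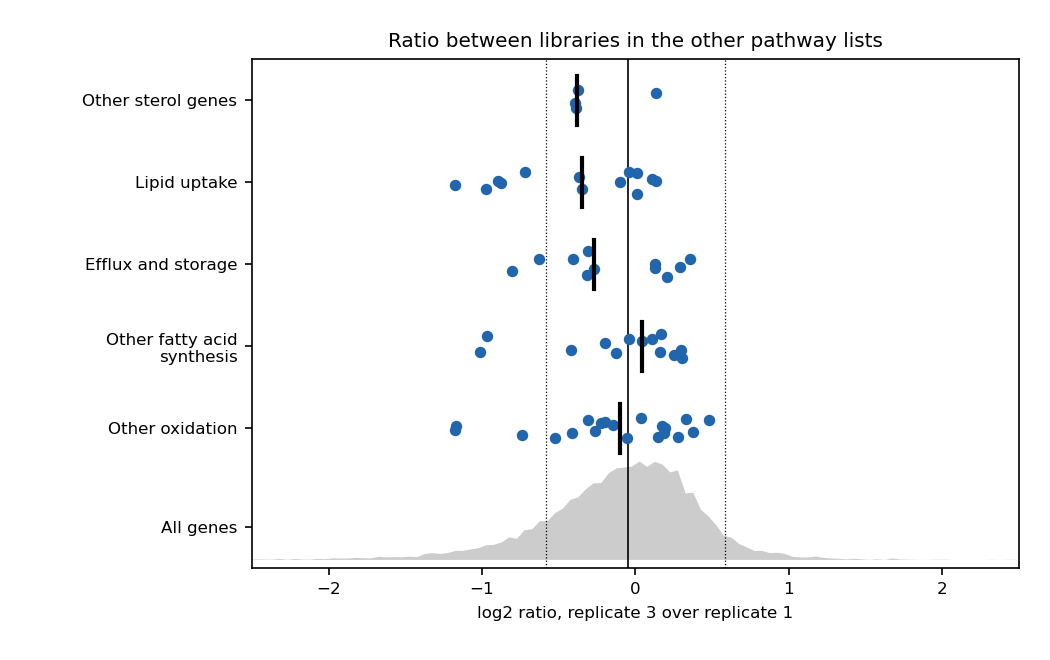
Points give the log2 ratio of replicate 3 over replicate 1 (horizontal axis) for the expressed genes of the 5 other pathway lists, with a thick bar at each median. The grey shape and vertical line show all expressed genes (mean of 1 CPM or more) and their median, and dotted lines mark 1.5-fold; the 3 points farthest left are PPARG, PPARGC1A and SLC27A6 at −1.17, and no point lies beyond the right dotted line.

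Some lists of markers of other cell types had members called lower in replicate 3, again beside 14.3% and 14.6% of expressed genes. Those shares leave out genes below 1 CPM. The marker counts take in such genes, among them the called genes SERPINA1, CDX2 and FOXA2, and genes with no counts, so the shares are not measured alike. The summed level of 7 matched primitive endoderm markers was 951, 935 and 564 CPM in replicates 1, 2 and 3, and 6 of the 7 were called lower in replicate 3 against each library. GATA6, an endoderm regulator, stood at 7.32, 8.06 and 0.490 CPM, while GATA4, not called, stood at 4.13, 4.62 and 3.87 CPM. Most of the summed level of the list came from COL4A1, LAMA1 and NID2. The 6 matched trophoblast markers summed to 29.7, 30.7 and 13.0 CPM, with CYP19A1 at 0 counts in all libraries, and 3 of the 6 were called lower in each pair. The 5 matched fibroblast markers summed to 640, 597 and 448 CPM, of which COL1A1 was the main part. Of the 5, 4 were called lower over replicate 1 and 3 over replicate 2. Of the 8 matched markers of hepatocytes and visceral endoderm, cells with an active lipid metabolism, ALB, AFP and APOC3 had no counts in any library, 2 of the 8 were called lower in each pair, and the list summed to 18.5, 16.3 and 13.5 CPM. Neural markers summed to 365, 354 and 308 CPM, of which NES was the main part, with 1 of 6 called lower. Adipocyte markers summed to 23.6, 20.4 and 12.8 CPM, of which LPL was the main part. LPL, already counted among the uptake genes, was the 1 of 4 called lower over replicate 1, and 2 of 4 were called lower over replicate 2. Blood markers summed to 4.03, 3.96 and 5.57 CPM, with 0 of 3 called lower. The 8 pluripotency markers summed to 5827, 6032 and 5495 CPM. Of the 8, 3 were called lower in replicate 3 against each library, LIN28A, LIN28B and SALL4. The part of these cell types in the lower levels of lipid genes was not tested. In bulk RNA, fewer cells of a type and less RNA per cell cannot be told apart.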

How the data were processed

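RNA of 3 libraries of 1 group was measured. The deposited files hold whole-number counts per Ensembl gene ID, not normalized by the authors, who named featureCounts 1.5.2, STAR 2.5.3a and Trim Galore 0.4.0, per the submitters' processing notes. The genome build, annotation release, strand setting and treatment of shared reads are not given in the sources at hand, so no coordinates are printed, and overlapping genes and genes with close copies are uncertain. Symbols came from a name table, which matched 12660 of 30811 IDs. Sequences and transcript lengths were not used here.

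Counts were scaled with TMM (edgeR 4.0.16, limma 3.58.1, R 4.3.3). An intercept-only model gave edgeR's quasi-likelihood test of each level against 1 CPM, two-sided. It was computed from the deviances of glmQLFit, as glmQLFTest accepts no model of 1 column. Pairs of libraries were compared by an exact conditional binomial test (scipy 1.17.1), with log2 ratios at a prior count of 0.5 and exact 95% intervals. All p-values were Benjamini-Hochberg adjusted over the 23432 genes with a count. Both tests were checked on simulated counts. For the pair test these held counting error alone, so the check does not give its error rate where libraries vary beyond counting error. Alternatives used DESeq2 1.42.0 (size factors and Wald test), other filters, fold floors and levels, halved counts, and libraries left out. Genes of the other lists were named where they had the highest or lowest mean, or were among at most 5 per direction called in both pairs with replicate 3. Some genes of the other lists are not reported here and were left out of the lists' counts and medians. Members and lists were chosen with earlier results of these data known. Figures were drawn with matplotlib 3.10.9.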

Additional observations from a re-analysis of the deposited data

How the results depend on the processing

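No paired analysis was possible because the 3 libraries make up only 1 group. The count of 34 members above 1 CPM was the same under each scaling, filter and left-out library tried except the level of 10 CPM (33, without ACSL1), and the DESeq2 Wald test gave 0 members below 1 CPM. No direction of a member or of a named gene of the wider pathway lists reversed in the alternatives run. Ratios of single genes were checked only in the pairs with replicate 3, and genes named only from the marker lists were not checked. Counts between libraries depended on the fold floor. With no floor, 28 and 27 members were lower in replicate 3 than in replicates 1 and 2, and 3 and 3 higher, beside 39.7% and 40.2% of expressed genes (mean of 1 CPM or more) lower and 30.8% higher in each pair. With no floor, the pathway lists had 29 and 29 lower and 16 and 16 higher. Between replicates 1 and 2, 3 members were higher in replicate 2, with 3 pathway genes lower and 2 higher. Of expressed genes, 4.72% were lower and 5.88% higher in replicate 2 with no floor. With a floor of 2-fold, 3 and 4 members and 4 and 3 pathway genes were lower in replicate 3. The share of expressed genes at that floor is not given here, so these counts have no background beside them. The level difference of synthesis minus oxidation was 1.82 with means in place of medians. Those means take in CPT1A, which lay below 1 CPM, and the cause of the change was not tested. By medians, the level difference ran from 0.90 to 1.20 with 1 library left out. Values per coding length were not run, as no protein lengths were at hand. Counting error limits CPT1A and other genes of few counts.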
